A study of Mus musculus with 3 samples.

Results

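The miR-29 family is a group of microRNAs (miRNAs, short RNAs that guide the silencing of messenger RNAs), and it was described here across visceral white fat of mice whose high-fat diet contained eicosapentaenoic acid (EPA), a long-chain polyunsaturated fatty acid found in fish. Its members were the rows of the deposited table named miR-29a, miR-29b or miR-29c, 7 of 1251 rows. They were 3 guide strands from the 3p arm (miR-29a-3p, miR-29b-3p and miR-29c-3p) and 4 strands from the 5p arm (miR-29a-5p, miR-29b-1-5p, miR-29b-2-5p and miR-29c-5p). Small RNA of epididymal fat was sequenced in 3 mice of the strain C57BL/6J, numbered 1, 3 and 9, which were 5 to 6 weeks old at the start, ate the diet for 11 weeks and were fasted for 4 h. The energy came from fat (45%), carbohydrate (35%) and protein (20%), and EPA made up 6.75% on a basis that the labels do not state. There was 1 group and no control diet, so no value here measures an effect of EPA. Only the sample titles and a note of the number per group mark the samples as separate animals, so each SD and p-value covers only variation among these samples and that variation may be technical. The depth of each library is unknown.

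Mammals make the family from a pair of gene clusters, each holding a miR-29b copy beside miR-29a or miR-29c. The 3p strands are loaded into Argonaute and are best known for repressing collagen and other matrix genes, which places them among the antifibrotic miRNAs. In fat, muscle and liver they are also known as repressors of insulin signalling genes, and raised levels of miR-29 in cultured mouse adipocytes reduce insulin-stimulated glucose uptake.

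The guides carry the same seed, the bases 2 to 8 that pair with targets, and differ only further along. They are shown with the seed in capitals, 5′ to 3′, because the guides carry nearly all of the family's signal (RefSeq, GRCm38.p6):
miR-29a-3p: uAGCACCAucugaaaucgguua
miR-29c-3p: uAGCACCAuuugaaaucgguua
miR-29b-3p: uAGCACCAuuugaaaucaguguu

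Counted from 1 at the 5′ end, miR-29a-3p and miR-29c-3p were the same at 21 of 22 positions and differed by C10U. miR-29a-3p and miR-29b-3p shared 18 of 22 positions, with the substitutions C10U, G18A, U21G and A22U, and miR-29b-3p has a further base at its end. The end of miR-29b-3p is known from human cells as a signal for import into the nucleus. No other listed miRNA with a RefSeq sequence, of 1001, had the seed of the 3 guides.

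The 5p strands have 4 different seeds and none of them is the guides' seed. They are shown because their values at or near the floor are part of the result, again with bases 2 to 8 in capitals:
miR-29a-5p: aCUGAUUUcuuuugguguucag
miR-29b-1-5p: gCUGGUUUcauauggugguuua
miR-29b-2-5p: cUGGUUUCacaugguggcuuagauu
miR-29c-5p: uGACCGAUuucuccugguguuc

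All 3 guides begin with U, the first base that Argonaute proteins are known to favour. Of the 5p strands only miR-29c-5p does, and the others begin with A, G or C. Each strand is 22 to 25 bases long, so levels were not corrected for length.

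The hairpins lie in pairs on mouse assembly GRCm38, the assembly of mm10. Mir29a (chr6:31062660-31062747) and Mir29b-1 (chr6:31063023-31063093) are on the minus strand of chromosome 6 with 275 bases between them. GENCODE M21 annotates no other gene over Mir29a, and the lincRNA Gm27019 overlaps Mir29b-1 by 2 bases. Mir29b-2 (chr1:195037040-195037120) and Mir29c (chr1:195037547-195037634) are on the plus strand of chromosome 1 with 426 bases between them. Both lie wholly in exonic sequence of the non-coding A330023F24Rik on the same strand, and of Cd46, a gene for a complement regulator, on the opposite strand. The hairpins of chromosome 6 are shown with the guide in capitals, because the largest gap within the family is between their products (RefSeq, GRCm38.p6, minus strand):
Mir29a: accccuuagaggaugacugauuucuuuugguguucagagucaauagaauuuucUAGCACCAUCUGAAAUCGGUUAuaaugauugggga
Mir29b-1: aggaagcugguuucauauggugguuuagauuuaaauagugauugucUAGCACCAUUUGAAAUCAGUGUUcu

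The letters that pair with the seed were common in collagen messages of the annotation. TGGTGCT, the letters opposite bases 2 to 8, stood on the sense strand in the longest annotated 3′ untranslated region of 22 of 27 collagen and matrix genes (81.5%). Over all 20642 genes with such a region the share was 13.3%, and over genes with a region within 20% of each member's length it averaged 14.2%. Of 20 insulin signalling genes, whose regions were longer (median 3154 bases, against 989 over all genes), 9 held it (45.0%), where genes of like length averaged 27.4%. Both lists came from knowledge of the family's targets, so these shares are a description. Messenger RNA was not measured, and a match is not evidence of repression in this fat. Examples are shown with the match in capitals (the 8-letter form TGGTGCTA, which contains the 7-letter one, adds an A opposite base 1). Col1a1 and Col3a1 encode the main fibrillar collagens, Col5a1 a collagen of fibril cores, and Igf1 a growth factor of the insulin family. Pik3r1 encodes the regulatory subunit of PI3-kinase:
Col1a1 (chr11:94952516-94952545, plus strand): gggtggggtgggaaggaatttcTGGTGCTA
Col3a1 (chr1:45348960-45348989, plus strand): ttccaacttcaaaatgtctcaaTGGTGCTA
Col5a1 (chr2:28038012-28038041, plus strand): aattttttacacttgtctcttgTGGTGCTA
Igf1 (chr10:87931649-87931678, plus strand): ttgttgttgttttttagtacaaTGGTGCTA
Pik3r1 (chr13:101684503-101684531, minus strand): gggacaaagaggcctttaaccaTGGTGCT

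Col5a1 held 4 such matches and Igf1 held 2. Col1a2, Col6a1, Fn1, Nid1 and Sparc of the matrix list held none in the window searched, and neither did Insr, Irs2, Akt1 or Akt2 of the insulin list.

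miR-29a-3p was an abundant miRNA of this fat, while the other family members stood far below it. Values are on the deposited log2 scale of normalized counts, whose floor is 3.32 (10 on the linear scale). miR-29a-3p had 14.02 log2 units in mouse 1, 14.05 in mouse 3 and 13.94 in mouse 9 (14.00 ± 0.06, SD, n = 3). The mice lay within 0.11 of each other, and the miRNA ranked 27, 26 and 28 of all rows in mice 1, 3 and 9. Above the floor this is a linear normalized count of 16557, 16967 and 15736 in mice 1, 3 and 9.

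miR-29c-3p, which differs from it by a single base, was a miRNA of middle level. It had 9.03 log2 units in mouse 1, 9.23 in mouse 3 and 9.31 in mouse 9 (9.19 ± 0.15, SD, n = 3). Mouse 1 was lowest, and the miRNA ranked 107 to 115 in the 3 mice.

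miR-29b-3p, made by both clusters, was the lowest guide. Its level was 6.28 log2 units in mouse 1, 7.25 in mouse 3 and 7.02 in mouse 9 (6.85 ± 0.51, SD, n = 3). Mouse 1 again stood below mice 3 and 9. The linear normalized counts above the floor were 67.5, 142.0 and 119.9 in mice 1, 3 and 9. Its row does not tell the products of Mir29b-1 and Mir29b-2 apart, because their 3p sequences are identical.

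The 5p strands were at or near the floor. miR-29c-5p was listed at the floor in mouse 1 and had 4.59 log2 units in mouse 3 and 3.96 in mouse 9. miR-29b-1-5p was also at the floor in mouse 1, with 4.08 in mouse 3 and 3.62 in mouse 9. miR-29a-5p and miR-29b-2-5p were listed at the floor in all 3 mice, although the guide of the miR-29a hairpin ranked 28 or better in each mouse. Strands at the floor may still be present below what these libraries could detect.

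**Figure D1:**
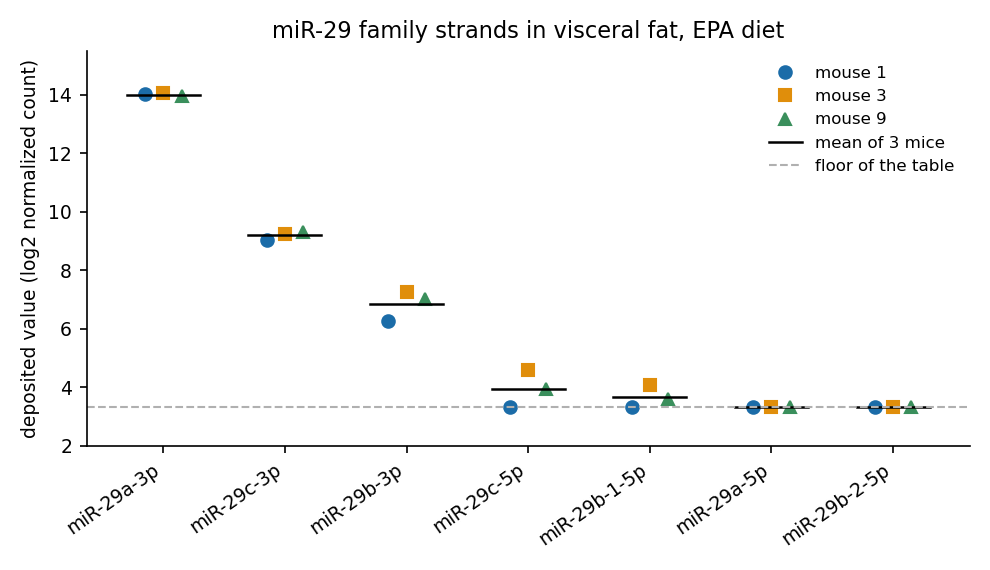
Deposited log2 normalized counts (y axis) of the 7 miR-29 strands (x axis) in mice 1, 3 and 9, with the mean as a bar and the floor of the table (3.32) as a dashed line. miR-29a-3p stands near 14.00 in every mouse, miR-29c-3p near 9.19 and miR-29b-3p near 6.85, and the 5p strands lie at or near the floor.

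In all, 3 of 7 members stood above the floor in every mouse, 2 in 2 mice and 2 in none. Of all 1251 listed miRNAs 22.9% were above the floor in every mouse, and of the 500 listed 3p rows 27.2%. All 3 members from the 3p arm were, and 0 of 4 from the 5p arm, where the share over all 465 listed 5p rows was 28.8%.

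The order miR-29a-3p, miR-29c-3p, miR-29b-3p held in 3 of 3 mice, with gaps many times the spread between mice. miR-29a-3p exceeded miR-29c-3p by 4.99, 4.82 and 4.64 log2 units in mice 1, 3 and 9, a mean of 4.81 ± 0.18 (SD, n = 3). On the linear scale above the floor that was 32.4-fold, 28.6-fold and 25.2-fold. The gap between miR-29a-3p and miR-29b-3p was 7.74, 6.80 and 6.92 log2 units in mice 1, 3 and 9 (7.15 ± 0.51), or 245-fold, 119-fold and 131-fold. miR-29c-3p exceeded miR-29b-3p by 2.75, 1.99 and 2.29 log2 units (2.34 ± 0.39). The exact two-sided sign-flip test gave p = 0.25 for each of the 3 pairs compared, 0.25 after Benjamini-Hochberg adjustment, which is the smallest value 3 mice allow. Unequal capture of different sequences in library preparation was not tested.

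The family held 0.712%, 0.737% and 0.685% of the summed normalized value in mice 1, 3 and 9 (0.712% ± 0.0257, SD, n = 3). Of the family's own sum miR-29a-3p held 95.9% ± 0.612, miR-29c-3p 3.37% ± 0.398 and miR-29b-3p 0.641% ± 0.217. All 5p strands together held 0.0552% ± 0.0594. Seeds could be ranked only over rows with a RefSeq sequence, which held 80.2% of the summed value. Abundant rows such as miR-143-3p, miR-378a-3p, miR-486-5p and miR-133a-3p, each above miR-29a-3p in mean level, were not ranked. Within that limit, and with identical sequences counted once, the miR-29 seed had the 14th highest mean share of 246 seeds with any signal. It stood between that of miR-148a-3p and its relatives (0.878%) and that of the insulin-sensitivity regulators miR-103-3p and miR-107-3p (0.642%). Mouse by mouse the miR-29 seed exceeded the miR-103 seed in mice 1 (0.712% against 0.540%) and 3 (0.736% against 0.593%), but not in mouse 9 (0.685% against 0.795%). Their order was thus not the same in every mouse.

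Such concentration in a single member was also seen in other families. Over the rows with a RefSeq sequence, 11 seed families had at least 3 members above the floor in every mouse. Some are held only in part, as the miR-30 family without miR-30d-5p and miR-30b-5p, so their shares could differ with all members. miR-29a-3p held 96.0% of the mean normalized count of its seed, the third of these 11 shares, where the median leading member held 76.9%. Higher shares were held by miR-130a-3p (98.7%) and miR-148a-3p (96.8%). At the other end let-7c-5p held 33.9% of the let-7 seed. These values are a description with no test.

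**Figure D2:**
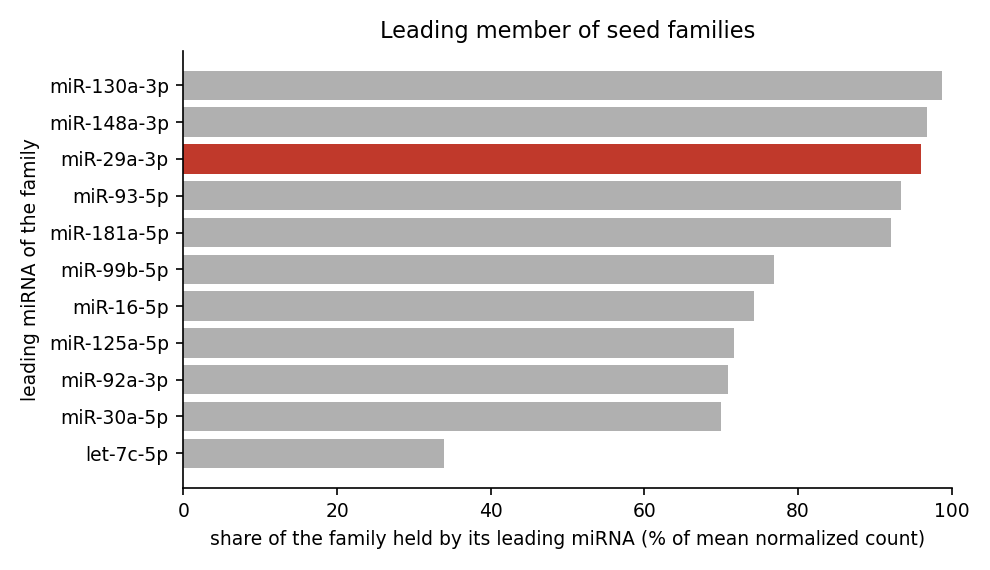
Share of a seed family's mean normalized count (x axis, %) held by its leading miRNA (y axis), for the 11 families with at least 3 members above the floor in every mouse, from rows with a RefSeq sequence, which hold some families only in part. miR-29a-3p (red) holds 96.0%, below miR-130a-3p and miR-148a-3p and above the median of 76.9%.

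The gap between miR-29a-3p and miR-29c-3p was set beside those of other miRNAs that differ by 1 base. Over 12 pairs of rows with a RefSeq sequence, of equal length and differing by 1 base, both above the floor in every mouse, the gap between higher and lower member was 4.81 ± 0.18 log2 units for miR-29a-3p and miR-29c-3p and 0.25 to 4.13 for the other 11. The miR-29 pair was followed by miR-103-3p over miR-107-3p (4.13 ± 0.78), let-7a-5p over let-7e-5p (3.83 ± 0.23) and miR-30a-5p over miR-30e-5p (3.59 ± 0.12). In mouse 3 the first of these gaps was 4.82 and the miR-103-3p gap 3.61, but in mouse 9 they were 4.64 and 5.03, so the miR-29 gap was not the widest of the 12 in every mouse. Rows without a RefSeq sequence, miR-133a-3p among them, are in none of these pairs, so the order holds for the 12 alone. miR-133a-3p, named here after its values were seen, stood 8.11, 6.89 and 6.36 log2 units above its family member miR-133b-3p in mice 1, 3 and 9 (7.12 ± 0.90). That is a wider gap than that of miR-29a-3p and miR-29c-3p. In mouse 1 miR-133b-3p was near the floor (3.83), so the gap there depends on the constant under the log. The number of mismatches allowed when reads were assigned is not given in the sources used here. How far reads of the pair were told apart was not tested.

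Cluster partners were far apart in level on chromosome 6 and closer on chromosome 1. miR-29a-3p stood 7.15 ± 0.51 log2 units above miR-29b-3p, the product of the hairpin beside it. That gap ranked 5 of 85 pairs of miRNAs from hairpins on the same strand within 10000 bases, whose median gap was 2.73. These pairs hold only miRNAs with a RefSeq sequence that were above the floor in every mouse, so partners at the floor, whose gaps cannot be measured, are left out. On chromosome 1, miR-29c-3p stood 2.34 ± 0.39 above miR-29b-3p, rank 49 of 85. Among the 85, larger gaps than that of chromosome 6 came from 2 clusters, with miR-92a-3p over miR-19b-3p (9.56 ± 0.65) or miR-20a-5p, and miR-127-3p over miR-433-3p or miR-540-3p. Pairs from a large cluster share members, so the ranks are a description. The miR-29b-3p row sums the products of both hairpins, so neither gap is that of a single hairpin pair.

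**Figure D3:**
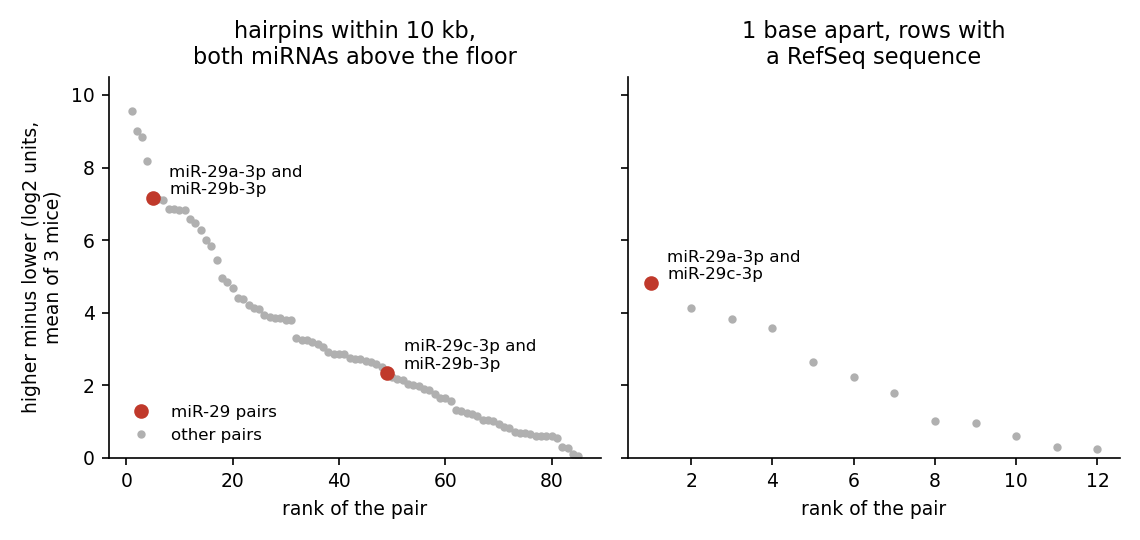
Level gap between the higher and the lower miRNA (y axis, log2 units, mean of 3 mice) for pairs in order of gap (x axis), for 85 pairs from hairpins within 10 kb on the left and 12 pairs 1 base apart on the right, all with a RefSeq sequence and above the floor in every mouse; miR-29 pairs are red. The miR-29a-3p and miR-29b-3p gap of 7.15 ranks 5 on the left, and the miR-29a-3p and miR-29c-3p gap of 4.81 is the widest in the mean of the 12 on the right.

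For each miR-29 hairpin the 3p row stood above the 5p row, and far above it for miR-29a and miR-29c. A hairpin is cut into a 5p and a 3p strand, of which usually 1 is kept, and the difference of the deposited log2 values was tested for 165 hairpins with both arms listed. By limma's moderated test (two-sided, Benjamini-Hochberg adjusted over the 165), the 3p arm was higher in 43.0% of hairpins and the 5p arm in 54.5%, at an adjusted p below 0.05. For all 4 miR-29 hairpins the 3p row was higher, in 3 of 3 mice each. The tests of miR-29b-1 and miR-29b-2 are not independent, as they are set against the same miR-29b-3p row. That row sums both hairpins, so the 3p level of either hairpin alone is not known.

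The miR-29a hairpin had the 5p strand below the 3p strand in every mouse, the difference being -10.69, -10.73 and -10.62 log2 units in mice 1, 3 and 9, with a mean of -10.68 (SE 0.10, limma adjusted p = 3.69e-07). It ranked 3 of 165 towards the 3p side, behind miR-143 and miR-92a-2. The 5p strand was at the floor throughout, so the difference is the height of miR-29a-3p above the floor and no fold can be given. The miR-29c hairpin differed by -5.71, -4.65 and -5.35 in mice 1, 3 and 9, with a mean of -5.23 (SE 0.25, limma adjusted p = 2.10e-05), close to the median of -4.99 among the 74 hairpins with the 3p arm higher in the mean. miR-29b-2-5p was also at the floor throughout, so the mean difference of -3.53 for miR-29b-2 (SE 0.34, limma adjusted p = 0.000328) is only the height of miR-29b-3p above the floor. In 68 of the 165 hairpins, those of miR-29a and miR-29b-2 among them, the lower arm was at the floor in every mouse. For these the p-value asks only whether the higher arm lies above the floor. The filter had already required that of its mean, so such a p-value adds little. For miR-29b-1 the mean was -3.18 (SE 0.29, limma adjusted p = 0.000264).

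The size of these differences depends on the constant under the log, because the lower strand is at or near the floor. With a constant of 40 in place of 10 the mean was -3.73 for miR-29c, -1.87 for miR-29b-2 and -1.77 for miR-29b-1. With a constant of 1 it was -6.73 for miR-29b-2 and -5.16 for miR-29b-1. The adjusted p stayed below 0.05 in each.

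**Figure D4:**
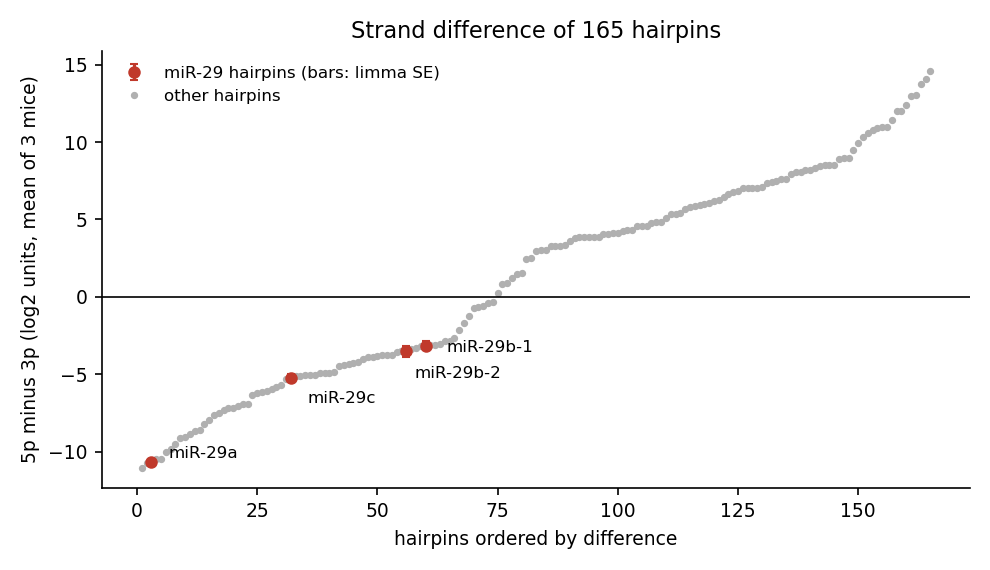
Mean difference between the 5p and the 3p strand (y axis, log2 units, 3 mice) of 165 hairpins in order of difference (x axis), with the 4 miR-29 hairpins in red and limma's SE as bars. All 4 lie below 0, from -10.68 for miR-29a to -3.18 for miR-29b-1.

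The 3 guides differed in how steady they were between mice. The SD of miR-29a-3p, 0.06 log2 units, was the 9th smallest of 194 miRNAs that averaged 100 normalized counts or more above the floor, whose median SD was 0.22. Of the 40 miRNAs nearest to it in level, 2 had a smaller SD. miR-29c-3p had an SD of 0.15 (position 56 of 194), with 10 of its 40 level neighbours below it. miR-29b-3p had an SD of 0.51 (position 167 of 194), with 18 of 30 level neighbours below it and a median of 0.44 among them. These neighbours are a selected set, because the filter used the linear mean. A miRNA of lower mean log2 level could pass it through a high value in a single mouse, as miR-375-3p did (mean 5.45, SD 3.02). A steady miRNA of the same level could fail it, so the spread usual at the level of miR-29b-3p is not known. With 3 mice no test was made. Sorted values were nearly equal in the 3 columns, and the part of this in the spread was not tested.

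**Figure D5:**
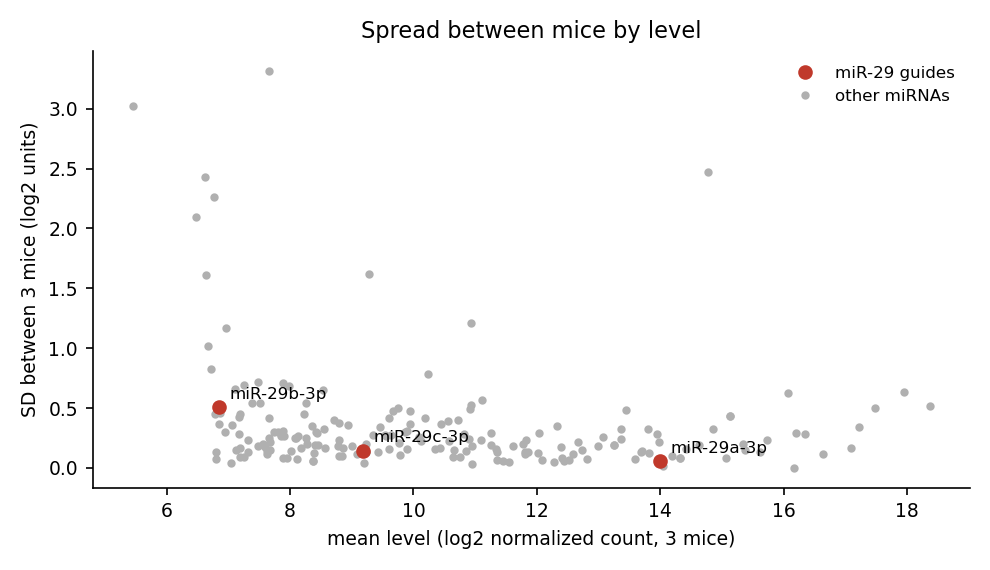
SD between 3 mice (y axis, log2 units) against mean level (x axis, log2 normalized count) for 194 miRNAs that averaged 100 normalized counts or more above the floor, with the miR-29 guides in red. miR-29a-3p lies at the lower edge with an SD of 0.06, and miR-29b-3p at 0.51 among other miRNAs of low level.

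Both miR-29c-3p and miR-29b-3p were lowest in mouse 1, by at least 0.21 and 0.74 log2 units. miR-29a-3p was lowest in mouse 9. The summed share of the striated muscle markers was also lowest in mouse 1. It was 0.163% there, 3.57% in mouse 3 and 2.79% in mouse 9, nearly all of it miR-133a-3p. Of that list 2 of 5, miR-133a-3p and miR-133b-3p, were above the floor in every mouse, against 22.9% of all listed miRNAs. Of the others miR-208a-3p was at the floor in all 3 mice and miR-206-3p in mice 1 and 9 (3.83 in mouse 3), while miR-1a-3p was at the floor in mouse 1, with 5.53 in mouse 3 and 3.44 in mouse 9. Muscle is known to express miR-29, and the part of these markers in the miR-29 values was not tested.

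miRNAs listed as markers of cell types in the labelled tissue were present, but how specific each is to its cell type was not tested. All 5 adipocyte-linked miRNAs were above the floor in every mouse (summed share 8.06% to 11.7%), and miR-143-3p (17.10 ± 0.17) was the highest of them. So were all 5 fibroblast and stromal ones (1.54% to 1.82%) and both endothelial ones (0.618% to 0.884%). In the stromal list miR-199a-3p and miR-199b-3p had equal values in every mouse, each with a mean share of 0.407%. The stromal sum counts both rows, and whether they hold the same reads was not tested. Leukocyte markers summed to 0.354% to 0.381% (3 of 5 above the floor in every mouse), erythroid to 0.178% to 0.283% (1 of 2) and epithelial to 0.0378% to 0.157% (4 of 7). Hepatocyte miR-122-5p was at the floor in every mouse, as were 4 of 5 testis and germ cell markers and 888 of all 1251 listed miRNAs. The remaining marker of the testis and germ cell list, miR-34c-5p, had 7.83, 7.64 and 7.54 log2 units in mice 1, 3 and 9. Of all listed miRNAs 22.9% were above the floor in every mouse. In whole tissue fewer cells of a type and less miRNA per cell cannot be told apart.

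The miRNAs whose values over the 3 mice lay nearest to those of a guide, after centring on the mean, were taken from 191 others, with the root mean square distance as the measure. For miR-29a-3p they were miR-93-5p (0.02 log2 units), miR-322-5p (0.03) and miR-186-5p (0.03), all nearly flat. For miR-29c-3p they were miR-425-5p (0.01), miR-130a-3p (0.02) and miR-30d-5p (0.03). For miR-29b-3p they were miR-128-3p (0.09), miR-10b-5p (0.09) and miR-22-3p (0.10), each lowest in mouse 1. Distances over 3 mice are a description only.

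By level, miR-29a-3p (14.00 ± 0.06) stood between miR-145a-5p (14.20 ± 0.10) and miR-92a-3p (14.04 ± 0.02) above it and let-7g-5p (13.99 ± 0.21) and let-7i-5p (13.94 ± 0.28) below it. Its order against miR-92a-3p, let-7g-5p and let-7i-5p lay within the spread between mice. miR-29c-3p (9.19 ± 0.15) stood below miR-125b-2-3p (9.23 ± 0.20) and miR-146a-5p (9.20 ± 0.04) and above miR-1839-5p (9.18 ± 0.16) and miR-339-5p (9.09 ± 0.12). miR-29b-3p (6.85 ± 0.51) had miR-214-5p (6.86 ± 0.46) and miR-101b-3p (6.85 ± 0.36) above it and miR-486-3p (6.81 ± 0.13) and miR-350-5p (6.81 ± 0.08) below it. None of the differences given for miR-29c-3p and miR-29b-3p exceeded the spread between mice.

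Among miRNAs with roles like those of the family, miR-29a-3p held a high place and the other guides lower ones. In the list of other fibrosis-restraining miRNAs 10 of 12 were above the floor in every mouse, against 22.9% of all 1251 listed miRNAs. The list's median was 8.02 log2 units, rows at the floor included. Over all 1251 the median was at the floor (3.32), and 11 of the 12 averaged above it. The role lists were chosen with earlier results known, so these counts are a description. Of these 12, 3 stood above miR-29a-3p: miR-26a-5p (17.95 ± 0.63), miR-30c-5p (14.63 ± 0.20) and, on average, miR-133a-3p (14.78 ± 2.47). miR-133a-3p fell below it in mouse 1, with 11.94. The next, miR-98-5p, had 10.95 ± 0.04. By mean level miR-29c-3p stood below 5 of the 12 and miR-29b-3p below 7.

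None of the 9 fibrosis-promoting miRNAs with a row averaged above miR-29a-3p. The nearest was miR-21a-5p, a miRNA induced in injured tissue, with 13.69, 13.84 and 13.56 in mice 1, 3 and 9, below miR-29a-3p in each. Among these 9, miR-199a-5p followed with 10.43 ± 0.16, then miR-192-5p with 10.08 ± 0.26 and miR-214-3p with 9.94 ± 0.37. The list had a median of 9.34, with 6 of 9 above the floor in every mouse, against 22.9% of all listed miRNAs. miR-29c-3p (9.19) stood below 5 of the 9 and miR-29b-3p (6.85) below 6.

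Of 16 other miRNAs with a row that are known to repress insulin signalling genes, 11 were above the floor in every mouse. The other 5 were at it in all, and the median of the list was 10.42. Over all listed miRNAs the share above the floor in every mouse was 22.9%. Only miR-143-3p (17.10 ± 0.17) and miR-145a-5p (14.20 ± 0.10) of that list averaged above miR-29a-3p. miR-103-3p (13.81 ± 0.33) and miR-126-3p (13.37 ± 0.32) came next. In mouse 9 miR-103-3p, at 14.18, exceeded miR-29a-3p, at 13.94. By mean level miR-29c-3p stood below 10 of the 16 and miR-29b-3p below 11.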

How the data were processed

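Total RNA of frozen epididymal fat from 3 mice was made into small RNA libraries, per the labels' protocols. The deposited table holds log2 values of normalized counts, 1 per mature miRNA and mouse. Per the series' design text, the authors ran the Gunaratne pipeline, with about 13.8 M reads per sample mapped to mm10, scaled counts by total usable reads and then added 40. No source used here gives the aligner, its mismatch setting or the miRNA annotation.

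The lowest linear value is 10, not 40, and 260 values lie between them. Whether 10 was added or set as a minimum is not stated. Of the top 100 ranks, 85 hold equal values in the 3 mice within 1e-06, so differences between mice are largely differences of rank. The depth is unknown, so counting intervals are left out.

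Linear values are the power of 2 minus 10. Logs are as deposited. Levels, shares and ranks were described by mean and SD. Arm differences were tested with limma 3.58.1 (R 4.3.3, trended prior) over hairpins whose larger arm averaged at least 100. Where a strand name carries a locus number it was set against the shared partner row. Gaps between guides used an exact sign-flip test. The arm test was tried on simulated data before use. The simulated differences had no floor, so the trial does not cover hairpins with an arm at the floor.

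Sequences are from RefSeq (GRCm38.p6), matched by name for 1001 of 1251 rows and all 7 members. Genes and 3′ untranslated regions are from GENCODE M21. The members, lists and tests were chosen with earlier results of these data known, and the target gene lists and the comparisons of pairs 1 base apart, clustered pairs and leading members were added after the table was seen. miRNAs named are all members, up to 4 highest of each role list, the 2 nearest levels above and below each guide and the 3 nearest patterns. The comparison pairs and families were named with their values in view. miR-424-5p, miR-126a-3p and miR-126a-5p had no row under these names. The lists hold only rows matched by name, so a row of the same miRNA under another name is left out unless listed itself. Python 3.11.15, numpy 2.4.6, pandas 2.3.3 and matplotlib 3.10.9 were used. Alternatives were another constant, median-ratio scaling, other filters and detection limits, other priors and leaving out each mouse.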

Additional observations from a re-analysis of the deposited data

How the results depend on the processing

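No paired analysis was possible because there was only 1 group to compare. The differences between guides and between arms were already taken within each mouse. Under each alternative that gave a value the 3 guides kept their mean order, each miR-29 hairpin its side of the threshold and the family share stayed within 1 SD. Of 127 alternative values 11 moved beyond the limits used. With a constant of 1 under the log the mean of miR-29c-5p was 2.21, that of miR-29b-1-5p 1.56, and those of miR-29a-5p and miR-29b-2-5p 0. With a constant of 40 these were 5.53, 5.42, 5.32 and 5.32, which follows from the constant. With a mean of at least 1000 required, fewer hairpins were tested, with 36 higher on the 3p side and 57 on the 5p side, against 71 and 90. miR-29a-3p then lay at percentile 7.78 of the spread between mice, against 4.64. At 100 or more above the floor in every mouse, 2 members met the limit in place of 3. Leaving out mouse 3 or requiring 1000 took the miR-29b hairpins below the filter, and requiring 1000 also the miR-29c hairpin, so those gave no value. Without a mouse, the miR-29a-3p and miR-29b-3p gap ranged from 6.86 to 7.33 log2 units. Its p cannot pass the threshold in any setting, so it says nothing of stability. Unknown depth limits what the values at the floor can show.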
